A study of Mus musculus with 106 samples.

Results

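The 10 genes followed here encode the ligands, receptors and junction proteins through which blood vessels are built and held together: the ligands Vegfa, Vegfb, Angpt2 and Apln, the receptors Kdr, Flt1, Tek and Aplnr, and the endothelial surface proteins Pecam1 and Cdh5. They were taken by symbol from the 4 deposited tables of gene counts, and all 10 were found in every table, 10 of 21647 rows in the largest. The series holds bulk RNA sequencing of mouse tissues at several ambient temperatures, with 106 libraries in 31 groups. Each tissue at 10 °C or 34 °C was compared with its own 22 °C libraries, in 11 tissues for the cold and 5 for the warmth. The fat depots were inguinal subcutaneous fat (ingSAT), perigonadal visceral fat (pgVAT) and interscapular brown fat (iBAT).

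All mice were wild-type males that the labels name C57BL/6 or C57BL/6J, with no transgene or drug in any group. Cold mice were stepped down through 18 °C and 14 °C, with 5 days at each, and then lived at 10 °C for 2 weeks. Warm mice lived at 34 °C for 4 weeks, and control mice stayed at 22 °C throughout. The labels give an age of 11 weeks for mice of the cold fat groups and their controls and 12 weeks for those of the warm groups. Outside fat the cold groups were 11 weeks old too, except quadriceps at 12 weeks. By the study's methods the mice of the cold experiment came from Janvier and those of the warm experiment from Charles River, each with controls from the same source. A fat library pools the tissue of 2 mice, and each fat group has 3 libraries, so the spread given below is between pools.

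Counts scaled to a common library total (CPM, scaled for library composition with TMM factors) are the level of a gene in a library. Differences are log2 fold changes (log2FC) of the treated over the 22 °C group, with the standard error (SE) and p of edgeR's two-sided quasi-likelihood test. A gene is called at an unadjusted p of 0.05 or less together with a fold change over 1.5, the limits the study used, and the adjusted p is edgeR's Benjamini-Hochberg value over all genes of the comparison.

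VEGF-A is the main growth signal of blood vessels. It acts through KDR (VEGFR2) on endothelial cells, whereas FLT1 (VEGFR1) binds VEGF-A and VEGF-B tightly and also serves as a decoy. ANGPT2 is made by endothelial cells and modulates TEK (TIE2), the receptor that keeps mature vessels quiet, and apelin (Apln), a peptide of sprouting tip cells, signals through the G protein-coupled receptor APLNR. PECAM1 and VE-cadherin (Cdh5) sit at the contacts between endothelial cells and are used as markers of them. Brown fat is densely vascularised, and adipocytes themselves are a source of VEGF-A. In bulk tissue, fewer cells of a type and less RNA per cell cannot be told apart. Nor do bulk values show which cells of fat made a transcript such as Apln.

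Promoters are shown for the genes called in ingSAT and in the liver, each as the 250 bases upstream of the RefSeq start, 5′ to 3′ on the strand of the gene. The table of RefSeq promoters on GRCm38.p6 matched 6 of the 10 genes. Capitals mark a match to AGGAAG, the core of an ETS factor site, here read on the opposite strand as CTTCCT. Apln lies at chrX:48034854-48035103 on the minus strand, Tek at chr4:94739039-94739288 on the plus strand and Vegfb at chr19:6987652-6987901 on the minus strand.
Apln: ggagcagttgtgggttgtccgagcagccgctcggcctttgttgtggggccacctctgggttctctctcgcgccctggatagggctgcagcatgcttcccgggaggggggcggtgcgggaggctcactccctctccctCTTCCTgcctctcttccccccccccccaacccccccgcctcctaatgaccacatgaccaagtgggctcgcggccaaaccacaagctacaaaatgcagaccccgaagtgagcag
Tek: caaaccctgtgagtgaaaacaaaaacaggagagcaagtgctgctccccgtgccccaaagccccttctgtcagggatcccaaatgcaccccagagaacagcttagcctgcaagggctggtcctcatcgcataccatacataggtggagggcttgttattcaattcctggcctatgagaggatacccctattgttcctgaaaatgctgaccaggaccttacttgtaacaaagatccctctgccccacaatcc
Vegfb: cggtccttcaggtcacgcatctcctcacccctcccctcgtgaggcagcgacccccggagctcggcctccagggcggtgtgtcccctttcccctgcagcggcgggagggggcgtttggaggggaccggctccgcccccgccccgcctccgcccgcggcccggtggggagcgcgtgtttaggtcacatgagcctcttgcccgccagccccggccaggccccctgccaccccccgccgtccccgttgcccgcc

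The Apln window holds 1 AGGAAG, and of the other matched genes only Flt1 holds the motif, with 2 matches. On either strand 29.5% of all 32851 promoters hold it. The hypoxia response core ACGTG was found for 1 gene, in the window of the inner of the pair of Vegfa starts, against 16.6% of all promoters. That window (chr17:46025164-46025413) lies inside the Vegfa gene (chr17:46016993-46032369). The window of the outer Vegfa start held no ACGTG. The GATA letters AGATAA were found upstream of 1 gene, the outer Vegfa start, against 9.99% of all promoters. The Tek and Vegfb windows hold none of these letters on either strand. A match is a description of the sequence only.

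Before the results, some features of the fat libraries bear on them. In pgVAT the summed level of 7 epididymis genes was 19008 and 23959 CPM in 10 °C libraries 1 and 3 and 3.3 CPM in 10 °C library 2, with 698 to 2579 CPM at 22 °C. In iBAT of the warm experiment the summed level of 7 skeletal muscle genes was 5929 CPM in 22 °C library 2 and 4740 CPM in 34 °C library 1, with 3.9 and 9.5 CPM in the other 22 °C libraries and 1276 and 1374 CPM in the other 34 °C libraries. In ingSAT the summed level of 22 endothelial marker genes was 1793, 1508 and 849 CPM at 22 °C, so that library 3 stood well below the other two. In pgVAT 22 °C library 3 the 6 brown adipocyte genes summed to 457 CPM, with 307 CPM of Ucp1. The other pgVAT controls had sums of 14.3 and 33.8 CPM. Library 3 also had fewer counts, with 1716 for Vegfa against 6815 and 2991 in the other pgVAT controls. The part of these values in the results was not tested, and results that rest on them are given with and without the libraries. Adiponectin, the adipocyte marker, was at 1747 CPM or more in every white fat library, and Ucp1, the uncoupling protein of brown fat, at 1230 CPM or more in every iBAT library. All 22 endothelial marker genes were detected in every fat library. The totals ran from 4262403 to 25964912 counts in the table of 8 tissues with the cold fat depots, and from 29545458 to 62880248 in the table of 7 tissues with the warm iBAT.

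Levels at 22 °C were ranked within the table of 8 tissues, which leaves out quadriceps, spinal cord and bone marrow. There fat stood at the top for most of these genes. TMM factors were computed among the libraries of each tissue alone and not across tissues. Differences in composition between tissues are thus not scaled out of this order. Vegfa was highest in iBAT, at 573 ± 9.18 CPM (SD, n = 3), followed by ingSAT at 407 ± 42.7 CPM and pgVAT at 355 CPM, and was lowest of the 8 tissues in the brain at 43.7 CPM. The ingSAT and pgVAT libraries overlapped, while each iBAT library was above both. Vegfb was at 82.7 CPM in pgVAT, 78.3 CPM in iBAT and 68.8 CPM in ingSAT, with overlapping libraries, against 5.51 CPM in the liver. Thus within these 8 tissues both VEGF genes shared the order of fat above the rest.

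The receptors followed a similar order. Kdr was at 254 CPM in iBAT, 159 CPM in ingSAT, 106 CPM in pgVAT, 88.6 CPM in the spleen and 21.8 CPM in the ileum. Tek was at 97.4 CPM in ingSAT and 73.1 CPM in iBAT, which overlapped, and at 9.43 CPM in the ileum. Aplnr was at 29.2 CPM in ingSAT, 27.4 CPM in iBAT and 24.5 CPM in pgVAT, all overlapping, and at 0.159 CPM in the liver. Flt1 differed in that the hypothalamus, at 97.5 CPM, came second after iBAT at 134 CPM and overlapped with ingSAT.

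Pecam1, Angpt2 and Apln did not have their highest level in fat. Pecam1 peaked in the spleen at 258 CPM, with ingSAT, iBAT and pgVAT between 161 CPM and 106 CPM and overlapping each other. Angpt2 also peaked in the spleen, at 31.2 CPM, with 12.4 CPM in ingSAT and 5.85 CPM in iBAT. Apln was highest of the 8 tissues in nervous tissue, at 51.4 CPM in the brain (2 libraries) and 31.4 CPM in the hypothalamus, while iBAT, pgVAT and ingSAT overlapped at 8.2, 6.4 and 5.13 CPM and the liver had 0.0794 CPM. Cdh5 was at 127 CPM in ingSAT, 116 CPM in iBAT and 82 CPM in pgVAT. Tissues of the other tables are given beside these and not ranked with them. The spinal cord had 92.4 CPM of Apln, 39.1 CPM of Aplnr and 74.3 CPM of Vegfb. The quadriceps controls of the cold experiment had 99.4 CPM of Vegfb and the bone marrow 33.5 CPM of Vegfa.

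Levels of different genes can be set side by side only per length, as RPKM (CPM per kilobase of exon). In the 22 °C iBAT libraries of the cold experiment the order in RPKM was Vegfa 134, Vegfb 48.8, Kdr 28.1, Cdh5 27.7 and Pecam1 21.9. Then came Tek 15.5, Flt1 9.93, Aplnr 7.41, Apln 2.6 and Angpt2 1.58. This order is given for that experiment only. In CPM the 22 °C iBAT mean of the warm experiment was 2.48 times that of the cold experiment for Vegfb. It was 1.86 times for Cdh5, 1.51 times for Aplnr and 0.284 times for Angpt2. In the cold experiment's controls the VEGF ligands thus stood above their receptors per length, and the angiopoietin and apelin ligands below theirs.

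**Figure D1:**
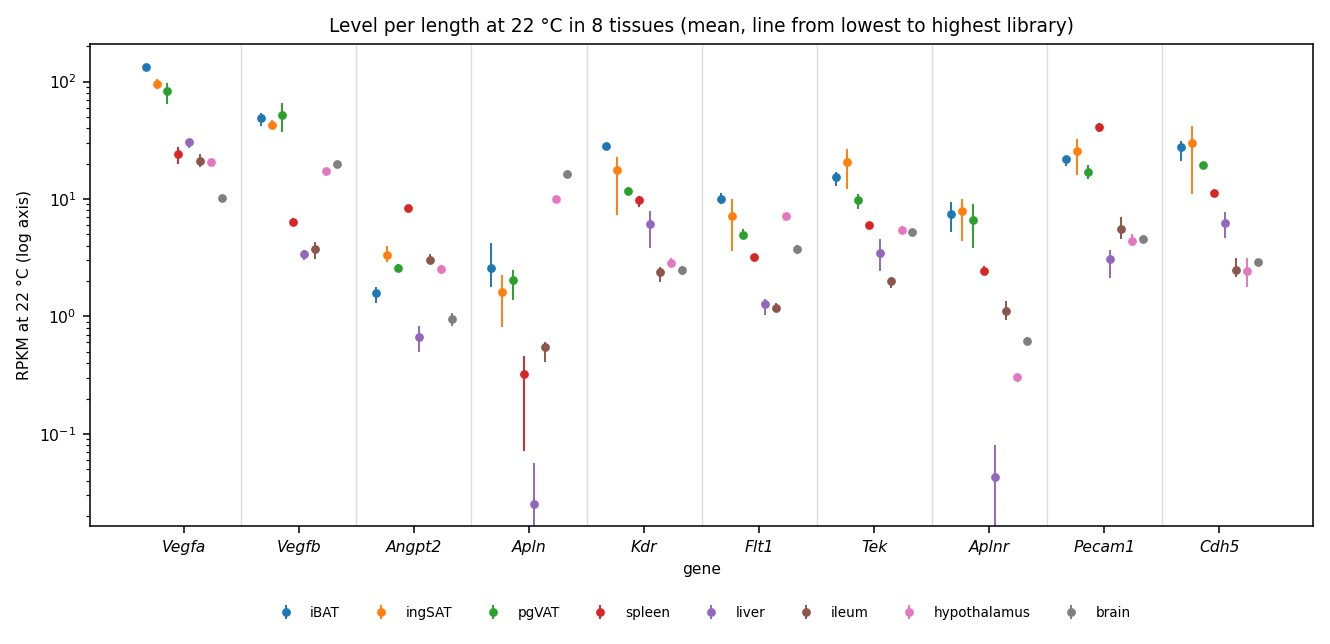
Level of each gene at 22 °C in the 8 tissues of the largest table, as RPKM on a log axis, with a point at the mean of the libraries and a line from the lowest to the highest library. Among these 8 tissues Vegfa, Vegfb, Kdr, Aplnr and Cdh5 have their highest levels in the 3 fat depots. Of the same tissues Apln is highest in brain and hypothalamus, and Pecam1 and Angpt2 in spleen. TMM factors were computed within each tissue and not across tissues.

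Over the 16 groups of the 8-tissue table, the gene whose log2 CPM followed Kdr most closely was Cdh5, with a Pearson r of 0.977 among 15757 genes. The closest to Cdh5 was Npr1 (r = 0.982), the natriuretic peptide receptor, and the closest to Pecam1 was Ripk2 (r = 0.975), followed by the endothelial genes Cd93 and Icam2. For Tek, Anxa5 came first (r = 0.974) and Adgrl4, an endothelial adhesion receptor, second (r = 0.967). For Flt1, Galc came first (r = 0.960) and Jam2, a junction molecule, second (r = 0.952). The closest gene was Hspa12b for Vegfb (r = 0.977), Zup1 for Angpt2 (r = 0.972), Fam69b for Apln (r = 0.975) and Mmp28 for Aplnr (r = 0.964). The Vegfa pattern was closest to that of Rcbtb2 (r = 0.985) and Acacb (r = 0.985), the latter a carboxylase of fatty acid metabolism. The groups share libraries of 8 tissues run in 1 table, so these r values mostly describe differences between tissues.

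In ingSAT the cold was compared with 22 °C in 3 against 3 libraries. Of the 10 genes, Apln was called higher and Tek lower at 10 °C, where 7.2% of all 13982 genes tested were called higher and 9.14% lower. Apln (chrX:48025146-48034853, minus strand) had 7.16, 5.67 and 2.57 CPM at 22 °C and 16.4, 10.2 and 12.3 CPM at 10 °C, from 39 to 198 counts a library. Every cold library was above every 22 °C library. Its log2FC was 1.35 (SE 0.39, fold change 2.54, edgeR adjusted p = 0.0789), and it was called whichever library was left out (log2FC 1.05 to 1.65).

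Tek (chr4:94739289-94874976, plus strand), whose promoter is shown above, had 126, 109 and 57.6 CPM at 22 °C and 72.8, 44.7 and 44 CPM at 10 °C. The groups overlapped, because 22 °C library 3 was below 10 °C library 1. The log2FC was -0.86 (SE 0.33, edgeR adjusted p = 0.147). Tek was no longer called without 22 °C library 1 (-0.63) or 2 (-0.77), or without 10 °C library 2 or 3 (-0.70 each).

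Both VEGF ligands separated the groups without reaching the fold limit. Vegfa (chr17:46016993-46032369, minus strand) had 371, 454 and 396 CPM at 22 °C and 605, 508 and 538 CPM at 10 °C, a log2FC of 0.43 (SE 0.14, edgeR adjusted p = 0.11). Vegfb (chr19:6982473-6987651, minus strand) had 64.8, 66.4 and 75.2 CPM at 22 °C and 54.6, 45.1 and 51.4 CPM at 10 °C, a log2FC of -0.45 (SE 0.12, edgeR adjusted p = 0.0682). Each cold library was thus above the controls for Vegfa and below them for Vegfb.

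The endothelial genes of ingSAT were spread widely at 22 °C. Cdh5 (chr8:104101625-104144511, plus strand) had 176, 158 and 46.4 CPM at 22 °C against 71.5, 55.5 and 57.4 CPM at 10 °C (log2FC -1.04, SE 0.45, edgeR adjusted p = 0.185). Kdr (chr5:75932827-75978458, minus strand) had 207, 202 and 66.6 CPM against 134, 114 and 113 CPM, and its log2FC of -0.40 was close to its SE of 0.39. In both genes 22 °C libraries 1 and 2 lay above the cold group and library 3 below it. With 22 °C library 3 left out, 6 of the 10 genes were called: Apln was higher (log2FC 1.05), and Cdh5 (-1.41), Tek (-1.09), Flt1 (-0.93), Kdr (-0.74) and Pecam1 (-0.60) were lower. Of all genes 12.6% were then called higher and 12.5% lower. That library was the control lowest in summed endothelial markers. Leaving it out by itself raises the control level of endothelial genes, so these lower calls are no separate evidence of a change. Cdh5 was also called lower with all libraries by edgeR's exact test, by DESeq2, with library size only and with no filter. The summed endothelial markers of the cold libraries were 1170, 1048 and 1018 CPM, the white adipocyte markers went from 23985 CPM or more at 22 °C to 12685, 13286 and 19261 CPM at 10 °C, and 6 brown adipocyte markers went from 90.5 to 147 CPM at 22 °C to 2027, 2623 and 2179 CPM at 10 °C. In the ingSAT libraries 8 leukocyte genes summed to between 226 and 984 CPM and the muscle genes to between 29.6 and 2997 CPM. The part of these values in the results was not tested. Over the 10 genes the median log2FC was -0.38, against -0.01 over all genes.

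In pgVAT 1 of the 10 genes was called, Apln, against 4.46% of the 14856 genes tested that were called higher and 3.47% called lower. Apln had 7.8, 7.06 and 4.34 CPM at 22 °C and 11, 30.2 and 11.7 CPM at 10 °C, from 20 to 430 counts a library. All cold libraries were above all 22 °C libraries, with library 2 far above the other two. The log2FC was 1.44 (SE 0.48, fold change 2.72, edgeR adjusted p = 0.593), and with 10 °C library 2 left out it was 0.79 and no longer called. The same held without 22 °C library 2 (1.51) or 22 °C library 3 (1.25). The latter is the one high in brown adipocyte genes, with 20 counts of Apln. By edgeR's quasi-likelihood test no gene of pgVAT had an adjusted p under 0.05, while 1207 had an unadjusted p under 0.05, and 37 genes passed the adjusted limit by edgeR's exact test and 157 by DESeq2.

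The endothelial genes of pgVAT varied more among the cold libraries than between the temperatures. Kdr had 104, 114 and 99.5 CPM at 22 °C and 48.7, 230.3 and 147 CPM at 10 °C (log2FC 0.42, edgeR adjusted p = 0.825). Cdh5 had 82.1, 83.2 and 80.9 CPM against 24.7, 161 and 87.7 CPM (log2FC 0.15, edgeR adjusted p = 0.954), and Pecam1 had 121, 106 and 91.3 CPM against 38.4, 252 and 139.7 CPM (log2FC 0.43, edgeR adjusted p = 0.849). In each of them 10 °C library 1 was the lowest of the 6 libraries and 10 °C library 2 the highest, and the summed endothelial markers had the same order, with 571, 1964 and 1091 CPM. With 10 °C libraries 1 and 3 left out, those high in epididymis genes, all genes but Vegfa and Vegfb were called higher, 8 of 10, against 2.69% of all genes. That setting was chosen after seeing the data and leaves library 2 as the only cold library, assumed to vary like the controls. Without 10 °C library 1 alone, Apln, Kdr and Pecam1 were called higher, against 2.52% of all genes. Without 10 °C library 2 only Vegfb was called, lower, against 10.5% of all genes, and the log2FC of Cdh5 (-0.55), Flt1 (-0.50), Tek (-0.35), Pecam1 (-0.26), Kdr (-0.12) and Aplnr (-0.031) turned below 0, with no call.

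**Figure D2:**
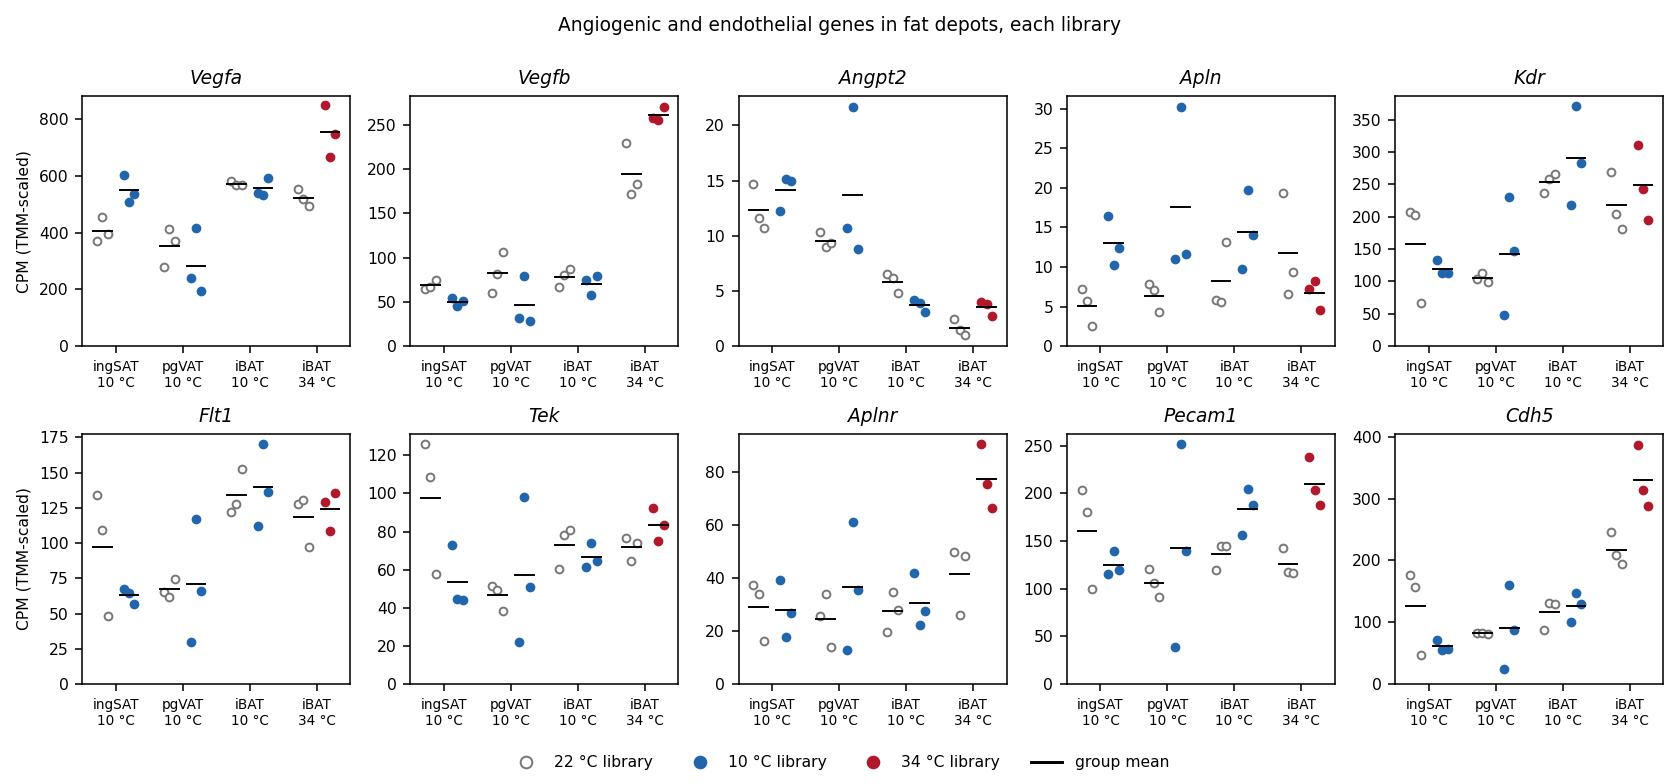
CPM of each gene in each fat library, by comparison, with 22 °C libraries beside treated ones and a bar at each group mean. Apln is above its controls in both white depots, and the cold pgVAT libraries are spread more widely than their controls.

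In iBAT at 10 °C 1 of the 10 genes was called, Angpt2, which was lower, against 6.0% of the 12791 genes tested called higher and 7.24% called lower. Angpt2 (chr8:18690263-18741562, minus strand) had 6.54, 6.2 and 4.79 CPM at 22 °C and 4.2, 3.87 and 3.11 CPM at 10 °C, with no overlap. The log2FC was -0.63 (SE 0.21, edgeR adjusted p = 0.0846), and Angpt2 was not called without 22 °C library 1 (-0.55) or 10 °C library 3 (-0.52). Pecam1 (chr11:106654217-106750628, minus strand) moved the other way, from 119.6, 145 and 145 CPM to 157, 205 and 188 CPM, again with no overlap but under the fold limit (log2FC 0.42, SE 0.14, edgeR adjusted p = 0.0845).

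Apln had 5.84, 5.59 and 13.2 CPM in iBAT at 22 °C and 9.69, 19.8 and 14 CPM at 10 °C. The groups overlapped through 22 °C library 3, and the log2FC of 0.79 (SE 0.36, edgeR adjusted p = 0.193) missed the limit. Without 22 °C library 3 it was 1.33 and without 10 °C library 1 it was 1.03, and Apln was called in either case. Vegfa, the most abundant of the ligands, had between 534 and 594 CPM in all 6 iBAT libraries of the cold experiment, and its groups overlapped (log2FC -0.04, edgeR adjusted p = 0.848). Thus the spread of Vegfa between libraries covered its difference between temperatures. The median log2FC of the 10 genes was 0.08, against -0.02 over all genes. The summed muscle genes were at 6613 to 9211 CPM at 22 °C and 2549 to 5358 CPM at 10 °C, and their part in these results was not tested.

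In iBAT at 34 °C 4 of the 10 genes were called, all of them higher, against 12.2% of the 12331 genes tested called higher and 7.19% called lower. With an edgeR adjusted p under 0.05 there were 5 of 10, against 28.9% of all genes. Pecam1 had 142, 118 and 116 CPM at 22 °C and 238, 204 and 188 CPM at 34 °C (log2FC 0.74, SE 0.13, edgeR adjusted p = 0.00687). Cdh5 had 247, 209 and 195 CPM against 387, 315 and 288 CPM (log2FC 0.61, SE 0.14, edgeR adjusted p = 0.0202). All warm libraries were above all controls for both junction genes.

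Of the receptors, Aplnr (chr2:85136225-85139923, plus strand) had 49.8, 26 and 48.2 CPM at 22 °C and 90.4, 75.2 and 66.4 CPM at 34 °C (log2FC 0.90, SE 0.25, edgeR adjusted p = 0.0319). Its groups did not overlap. Kdr had 269, 204 and 181 CPM against 310.5, 243 and 194 CPM (log2FC 0.19, edgeR adjusted p = 0.503), and Flt1 (chr5:147561604-147726011, minus strand) had 128, 130.4 and 97.2 CPM against 129, 109 and 136 CPM (log2FC 0.07). Both VEGF receptors overlapped between the temperatures.

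Among the ligands, Angpt2 was called, with 2.46, 1.48 and 1.04 CPM at 22 °C and 4.03, 3.84 and 2.75 CPM at 34 °C (log2FC 1.10, SE 0.36, edgeR adjusted p = 0.0569), from 38 to 171 counts a library. Vegfa had 555, 519 and 495 CPM against 849, 668 and 749 CPM (log2FC 0.53, SE 0.12, edgeR adjusted p = 0.0158). Vegfb had 229, 171 and 183 CPM against 258, 255 and 271 CPM (log2FC 0.43, SE 0.12, edgeR adjusted p = 0.0392). These ligands were higher in every warm library than in every control, and the VEGF genes stayed under the fold limit. Apln had 19.3, 6.59 and 9.33 CPM at 22 °C and 7.23, 8.21 and 4.63 CPM at 34 °C, with overlap (log2FC -0.81, SE 0.40, edgeR adjusted p = 0.166).

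With 1 library left out at a time, Pecam1 (log2FC 0.64 to 0.84) and Aplnr (0.66 to 1.06) were called each time. Cdh5 was not called without 22 °C library 2 or 3 or 34 °C library 1 (0.47 to 0.58), nor Angpt2 without 22 °C library 3 or 34 °C library 1 or 2 (0.85 to 1.02), and Apln was called lower without 22 °C library 2 (-1.09). Without 22 °C library 2 and 34 °C library 1, again a setting chosen after seeing the data, 2 of the 10 genes were called, Pecam1 higher (log2FC 0.60) and Apln lower (-1.15), while Aplnr (0.53), Cdh5 (0.45) and Angpt2 (0.93) fell short of the limits. Of all genes 12.8% were then called higher and 6.58% lower. With library size alone in place of TMM the median log2FC of all genes moved from 0.02 to 0.30, and Vegfa and Vegfb were called as well. The median log2FC of the 10 genes was 0.48. The summed brown adipocyte markers were 13019, 9948 and 10872 CPM at 22 °C and 4698, 6086 and 5345 CPM at 34 °C, with no overlap, and their part in these results was not tested.

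The level of each gene can also be given as a percent of the summed CPM of the 22 endothelial marker genes of the same library, a ratio in which the scaling of the library cancels. It was added after seeing the data and was not tested. For Apln it was 0.399, 0.376 and 0.303% in ingSAT at 22 °C and 1.40, 0.974 and 1.21% at 10 °C. In pgVAT it was 0.677, 0.648 and 0.406% at 22 °C and 1.92, 1.54 and 1.07% at 10 °C. On this scale the cold libraries of both white depots again lay above their controls, and the pgVAT libraries were less spread than in CPM. In ingSAT Vegfa was also above its controls (48.4 to 52.9% against 20.7 to 46.6%) and Tek, which overlapped in CPM, was below them (4.26 to 6.22% against 6.78 to 7.21%). In cold iBAT Angpt2 was below and Pecam1 above its controls, and the other genes of the cold depots overlapped. In iBAT at 34 °C Apln, Kdr and Flt1 were below their controls on this scale.

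In iBAT the Apln ratio overlapped at 10 °C, and at 34 °C it was 0.419, 0.527 and 0.355% against 1.75, 0.651 and 1.09% at 22 °C, so every warm library was below every control. The summed endothelial markers of iBAT were 1104, 1013 and 856 CPM at 22 °C and 1727, 1558 and 1303 CPM at 34 °C. Relative to that sum Pecam1 was 12.7 ± 0.971% (SD, n = 3) at 22 °C and 13.8 ± 0.682% at 34 °C, with overlap, and Cdh5 also overlapped. Kdr and Flt1 were lower than in the controls on this scale, Kdr at 16.1 ± 1.61% (SD, n = 3) against 21.9 ± 2.20%. None of the 10 genes was above its controls in every warm library in this ratio, where 6 of 10 had been in CPM. The share of all genes with such separation is not given here. In CPM 5350 of all 12331 genes tested had an unadjusted p of at most 0.05 by edgeR's quasi-likelihood test. These counts are thus not read as a result about the 10 genes.

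**Figure D3:**
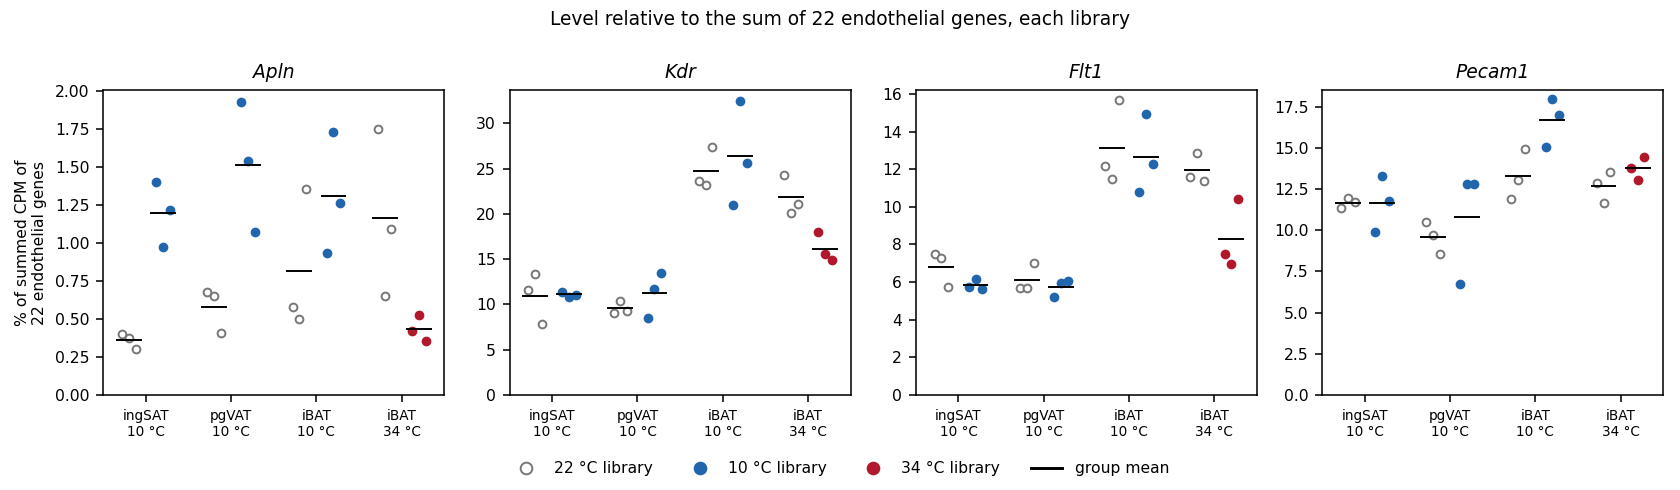
Apln, Kdr, Flt1 and Pecam1 as a percent of the summed CPM of 22 endothelial marker genes in each fat library, with a bar at each group mean. Apln is above its controls in cold ingSAT and pgVAT and below them in warm iBAT, where Kdr and Flt1 are below and Pecam1 overlaps.

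Other genes of the VEGF, angiopoietin and apelin pathways, from a list of 15, were counted in the same comparisons. The shares of all genes called are given beside this and the following lists. They were 7.2% higher and 9.14% lower in ingSAT, and 4.46% and 3.47% in pgVAT. In iBAT they were 6.0% and 7.24% at 10 °C, and 12.2% and 7.19% at 34 °C. In ingSAT 3 of 14 tested were called, all lower: Svep1, an extracellular ligand of TIE1 (log2FC -1.61, SE 0.23, edgeR adjusted p = 0.0123), the semaphorin Sema3e (-1.11) and Ptprb, the phosphatase that restrains TEK (-0.77). In pgVAT 1 of 14 was called, the VEGFR1 ligand Pgf, with 5.06, 6.51 and 4.99 CPM at 22 °C and 25.9, 3.51 and 43.8 CPM at 10 °C (log2FC 2.14, edgeR adjusted p = 0.593). Its high values lay in the libraries high in epididymis genes, and their part in it was not tested. In iBAT at 10 °C 1 of 12 was higher, Vash1, an inhibitor of angiogenesis (0.94), and 3 were lower: the neuropilin Nrp2 (-1.04), Svep1 (-1.75) and Angpt1, the agonist of TEK (-1.39, SE 0.33, edgeR adjusted p = 0.0273).

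In iBAT at 34 °C 5 of 12 pathway genes were called, all higher. Pgf had 0.662, 0.237 and 0.465 CPM at 22 °C and 4.19, 4.50 and 1.96 CPM at 34 °C (log2FC 2.97, SE 0.49, edgeR adjusted p = 0.00617), with no overlap. Angpt1 (log2FC 1.24), Vash1 (1.29), Tie1, the co-receptor of TEK (0.71), and Flt4, the receptor of lymphatic VEGF (0.71), were higher too. Angpt1 thus was called lower in cold and higher in warm iBAT, in experiments with separate controls, library kits and sequencing sites.

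Of the 22 endothelial marker genes, 11 were called higher and 1 lower in iBAT at 34 °C, against 12.2% and 7.19% of all genes. The median log2FC of these markers was 0.61 against 0.02 for all genes. Among them were Cldn5, a tight junction protein (log2FC 1.83), Cd34 (1.12) and Gpihbp1, the carrier of lipoprotein lipase on capillaries (0.91, SE 0.10, edgeR adjusted p = 0.00183), whereas Cyyr1 was lower (-0.61). In iBAT at 10 °C 3 were higher and none lower, with Emcn, the sialomucin of venous and capillary endothelium, at 31.6, 30.7 and 26.9 CPM against 58.5, 54.7 and 56.2 CPM (log2FC 0.93, edgeR adjusted p = 0.0015), and Clec14a (0.84) and Icam2 (0.59) beside it. In ingSAT 3 were lower, Vwf, the von Willebrand factor (-1.46), Eng, a co-receptor of TGF-beta (-0.89), and Cldn5 (-0.85). In pgVAT 0 were called by edgeR's quasi-likelihood test, 0 had an unadjusted p under 0.05, and 0 were called by edgeR's exact test and 1 by DESeq2.

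Of 12 genes of sprouting and the vessel basement membrane, 5 were lower in ingSAT, among them Mcam, an adhesion molecule of vessels (log2FC -1.51, SE 0.17, edgeR adjusted p = 0.00703), and the collagen IV chains Col4a1 (-1.63) and Col4a2 (-1.54). In iBAT at 34 °C 5 of 10 tested were higher, with Cxcr4 (log2FC 1.96) and the Notch ligand Dll4 (1.42), both known in tip cells, and in iBAT at 10 °C 2 were higher and 2 lower, with Cxcr4 at 0.90 and Mcam at -1.49. Of 12 mural cell genes 4 were lower in ingSAT, with Acta2, the smooth muscle actin, at 50.1, 45.9 and 41.0 CPM against 18.6, 13.7 and 10.6 CPM (log2FC -1.68, SE 0.21, edgeR adjusted p = 0.00888) and Pdgfrb (-1.11) beside it. In warm iBAT 1 was higher, Ndufa4l2 (0.70), and 1 lower, the pericyte proteoglycan Cspg4 (-0.82). Of 6 lymphatic genes, Lyve1 (-0.88) and Pdpn (-1.31) were lower and Mmrn1 (1.37) higher in ingSAT. In pgVAT 0 of the sprouting and 0 of the mural genes were called by edgeR's quasi-likelihood test or its exact test, with 0 at an unadjusted p under 0.05, and DESeq2 called 1 sprouting and 0 mural genes.

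Of 16 hypoxia-regulated genes, 2 were called higher and 3 lower in ingSAT, 2 and 1 in pgVAT, 4 and 1 in cold iBAT and 2 and 3 in warm iBAT. Pdk1, the kinase that restrains pyruvate dehydrogenase, had 129, 122 and 112 CPM at 22 °C and 253, 244 and 242 CPM at 10 °C (log2FC 1.03, SE 0.11, edgeR adjusted p = 0.00662), and Egln3, a HIF prolyl hydroxylase, was higher as well (1.17). Adm, the vasodilator adrenomedullin (-1.26), Ndrg1 (-1.48) and Epas1, which encodes HIF-2 alpha (-0.65), were lower. In warm iBAT the same 4 genes Pdk1 (-0.73), Egln3 (-1.41), Adm (2.09) and Ndrg1 (0.96) were called in the opposite direction. Pdk1 and Egln3 were also called higher in cold pgVAT (1.20 and 1.27) and cold iBAT (0.80 and 1.26).

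Ppargc1a, a coactivator that can induce Vegfa, and its partners Ppargc1b, Esrra and Esrrg were all 4 called higher in ingSAT at 10 °C, with Ppargc1a at 10.3, 13.7 and 14.9 CPM against 23.8, 24.5 and 28.2 CPM (log2FC 0.97, SE 0.18, edgeR adjusted p = 0.0253). In iBAT Ppargc1a was lower at both temperatures, with a log2FC of -0.91 at 10 °C and -1.45 at 34 °C. In pgVAT 0 of the 4 were called by edgeR's quasi-likelihood test, its exact test or DESeq2, and 0 had an unadjusted p under 0.05. The share called differed among these lists and from the shares of all genes. The lists were chosen with earlier results known and none was tested as a set, so no conclusion on a list is drawn.

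**Figure D4:**
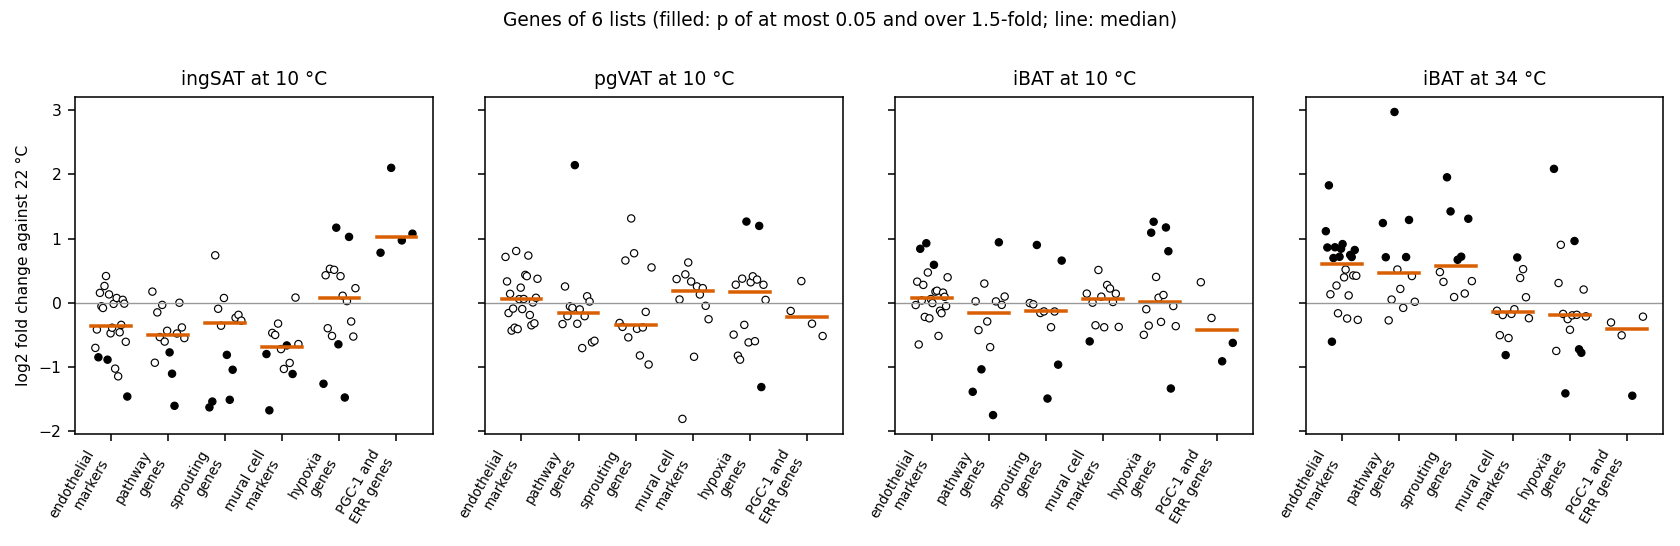
log2FC of the genes of 6 lists in the 4 comparisons of fat, 1 point a gene, filled where called, with a line at the median of the list. The median of the 22 endothelial markers is 0.61 in warm iBAT and -0.37 in cold ingSAT, and the 4 coactivator genes all lie above 0 in cold ingSAT.

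Whether the cold acted differently in the depots was tested as an interaction over the 18 libraries of ingSAT, pgVAT and iBAT in 1 fit. Of 30 differences, 3 for each of the 10 genes, 0 had an edgeR adjusted p under 0.05 and 2 had an unadjusted p under 0.05. Over all 14482 genes of that fit an adjusted p under 0.05 was reached by 0.0691% for ingSAT minus iBAT, 0.407% for pgVAT minus iBAT and 0.159% for pgVAT minus ingSAT. The 2 differences with an unadjusted p under 0.05 were in Angpt2 and Vegfa. For Angpt2 the log2FC was 1.14 greater in pgVAT than in iBAT (SE 0.39, edgeR adjusted p = 0.186). For Vegfa the difference of pgVAT minus ingSAT was -0.75 (SE 0.33, edgeR adjusted p = 0.301). The log2FC of Apln in ingSAT was 0.52 above that in iBAT (edgeR adjusted p = 0.801) and the difference of pgVAT minus ingSAT was 0.08 (edgeR adjusted p = 0.976), so a difference between depots was not detected for Apln. Without 10 °C library 2 of pgVAT, 3 differences had an adjusted p under 0.05, Vegfb in pgVAT minus iBAT (-1.31) and in pgVAT minus ingSAT (-0.98) and Vegfa in pgVAT minus ingSAT (-1.14). The cold pgVAT libraries then left were those high in epididymis genes, whose part in these differences was not tested. The share of all genes that passed in that fit is not given here. In pgVAT alone the same omission took the genes with an edgeR adjusted p under 0.05 from 0 of 14856 to 1317 of 15007.

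In the other 12 comparisons, of liver, spleen, ileum, quadriceps, brain, hypothalamus, spinal cord and bone marrow, 113 of 120 pairs of gene and comparison passed the filter on low counts and 2 were called, against 1.86% of all genes tested there. Liver at 34 °C gave the first. Vegfb, whose promoter is shown above, had 11.3, 10.9 and 12.3 CPM at 22 °C and 22.4, 18 and 24.1 CPM at 34 °C. Every warm library was above every control, and the log2FC was 0.90 (SE 0.13, edgeR adjusted p = 0.0318), where 1.77% of the liver genes were called higher and 0.385% had an adjusted p under 0.05. Vegfa in the same libraries had 159.7, 163 and 167 CPM against 235, 199 and 208 CPM, also without overlap, with a log2FC of 0.39 (edgeR adjusted p = 0.152) that stayed under the fold limit.

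The brain at 10 °C gave the second. Aplnr had 2.47 and 2.12 CPM in 2 libraries at 22 °C and 0.907, 1.32 and 0.665 CPM in 3 at 10 °C, without overlap, where 0.286% of the brain genes were called lower (log2FC -1.21, SE 0.29, edgeR adjusted p = 0.172). The labels name a further 22 °C brain library, which the group mean of the study leaves out and which held 50351 CPM of the liver gene Alb. With it included the log2FC of Aplnr was -0.90 and no longer met the limit on p, and that of Kdr turned from 0.30 to -0.56.

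The other tissues gave small differences with an unadjusted p under the limit and a fold change under it. In the cold Kdr was at a log2FC of 0.28 (SE 0.10) and Vegfb at -0.22 (SE 0.08) in the hypothalamus, Vegfa at 0.26 (SE 0.10) in the spinal cord, Aplnr at 0.54 (SE 0.19) in the spleen and Tek at 0.32 (SE 0.12) in quadriceps, each with an edgeR adjusted p of 0.439 or more. In cold bone marrow Vegfa (-0.20), Apln (-0.53) and Aplnr (-0.28) were lower and Vegfb (0.16) higher, with overlap and edgeR adjusted p values of 0.127 to 0.15. In cold brain Kdr (0.30), Flt1 (0.21) and Vegfb (-0.20) had edgeR adjusted p values of 0.484 to 0.561, and Apln in brain at 34 °C was at -0.19 (edgeR adjusted p = 1.0). Of all 153 pairs tested in fat and elsewhere, 10 were called, 8 of them among the 40 pairs in fat, where 7550 of all 53960 tests (14%) were called. Genes under the filter, such as Aplnr and Apln in the liver, were not tested, and Aplnr had no count in any of the 6 liver libraries of the warm experiment.

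**Figure D5:**
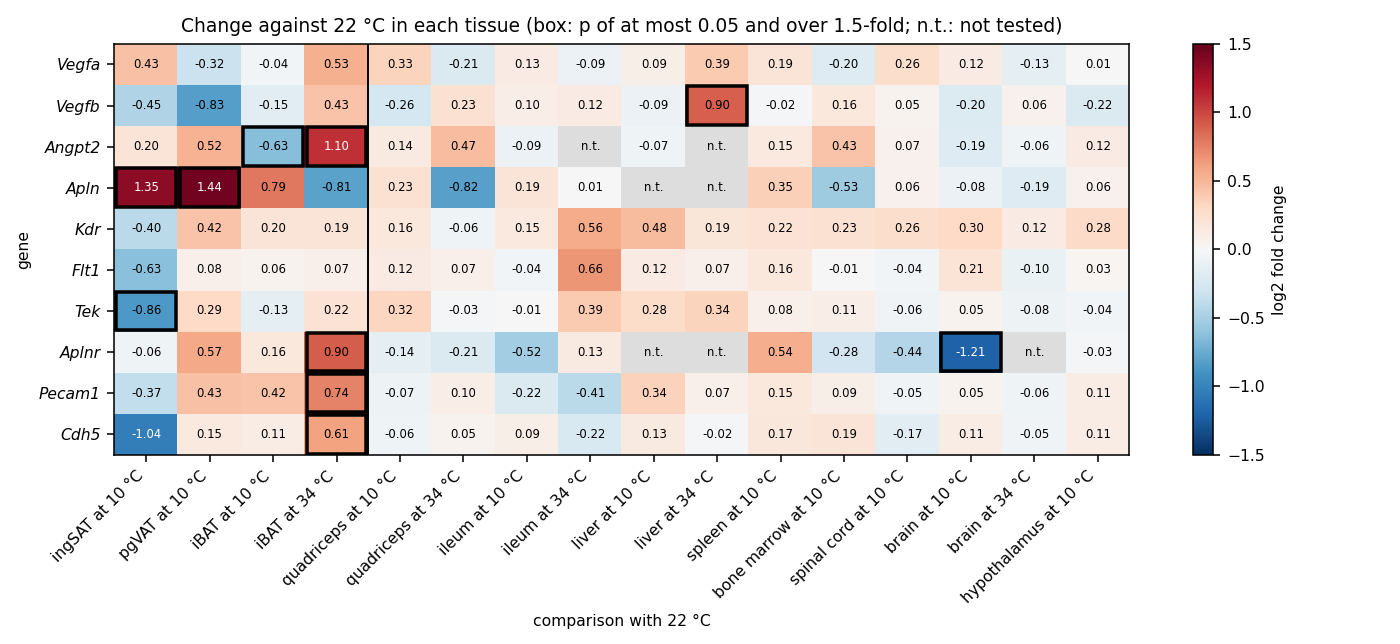
log2FC of each of the 10 genes (rows) in each of the 16 comparisons (columns, fat depots left of the line), as numbers on a colour scale from blue (lower than 22 °C) to red (higher), with a box round called genes and n.t. for genes not tested. Of the 10 boxes, 8 are in fat, and the other two are Vegfb in warm liver and Aplnr in cold brain.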

How the data were processed

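The data are gene counts from bulk RNA sequencing of 106 libraries. Per the submitters' processing notes the authors aligned reads to mm10 with STAR 2.5.3a and used Picard 1.141 and HTSeq 0.6p1. The study's methods name later versions of STAR and HTSeq, so the versions behind each set of counts are not certain. The deposited values are raw counts per gene, whole numbers with no scaling, and alignment and counting were not repeated here. A fat library pools 2 mice, and libraries of bone marrow and spinal cord come from single mice. Groups were taken from the sample titles, since the treatment text of the labels names 34 °C throughout. White fat at 34 °C was not analysed here.

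Each of 16 comparisons had a fit of its own in edgeR 4.0.16 (R 4.3.3, limma 3.58.1), with TMM scaling and genes of average log2 CPM above 0, by the two-sided quasi-likelihood F-test. The SE is the log2FC divided by the square root of F. Fits were tested on simulated counts. Totals ran from 4262403 to 62880248 counts (median 21585677). Reads carry no molecular barcodes, so PCR copies count as reads. The 22 °C libraries of quadriceps (6) were assigned to the 10 °C and 34 °C experiments by their column names and the group means of the study, and the brain comparison at 10 °C used 2 of the labelled 22 °C libraries. For the levels given, TMM factors were computed within each comparison, and tissues are ranked only within a table.

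Positions and exon lengths come from GENCODE M21 on GRCm38, promoters from RefSeq. All genes named are the 10 genes, called genes of the lists, and for likeness the genes with the highest Pearson r of log2 CPM (prior count 2, mean CPM of at least 1). The 10 genes and the lists were chosen with earlier results of these data known. Alternatives were edgeR's exact test, DESeq2 1.42.0, an adjusted p under 0.05, library size only, filterByExpr, no filter, each library left out, the replicate number as a block, and all labelled 22 °C libraries of brain and quadriceps. Leaving out the doubtful fat libraries and the ratio to endothelial markers were added after seeing the data.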

Additional observations from a re-analysis of the deposited data

Results flagged for a closer look

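In bone marrow at 10 °C, Kdr was at 10.6 CPM in library 2, away from the other libraries of its group, which ran from 17.6 to 19.4 CPM. It was the only such case among 40 sets of 5 or 6 libraries looked at, the 10 genes in each of 4 groups of bone marrow and spinal cord, where chance gives about 1 in 20. Angpt2 was higher in every cold library of the spleen than in every control (log2FC 0.15) and lower in every cold library of iBAT (log2FC -0.63). Aplnr was higher in every cold library of the spleen (log2FC 0.54) and lower in every cold library of the brain (log2FC -1.21), where it had few counts. These opposite directions between tissues were not tested as differences.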

How the results depend on the processing

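Of the 10 genes, 2 were called in ingSAT, 1 in pgVAT, 1 in iBAT at 10 °C and 4 in iBAT at 34 °C, with 2 calls in the other 12 comparisons. With an adjusted p under 0.05 and the same fold limit the counts were 0, 0 and 0 in the cold fat depots, 3 in iBAT at 34 °C and 1 in the other 12 comparisons. Of all genes tested, 926 of 13982 in ingSAT, 0 of 14856 in pgVAT and 1117 of 12791 in cold iBAT met both limits. In warm iBAT 1928 of 12331 did, and in warm liver, which gave the 1 call, 43 of 11179. In ingSAT edgeR's exact test, DESeq2, library size only and no filter each gave 3, with Cdh5 lower added, and in iBAT at 34 °C DESeq2 gave 5 and library size only 6. Over all genes those settings called 949 to 1095 higher and 1291 to 1405 lower in ingSAT. Of 12331 genes in warm iBAT, DESeq2 called 1540 higher and 927 lower, and library size only 3086 higher and 408 lower. In iBAT at 10 °C edgeR's exact test, DESeq2 and no filter each gave 2, and no filter gave 4 in the other comparisons. Over all genes of cold iBAT these settings called 775 to 969 higher and 891 to 1232 lower. With 1 library left out the counts ran from 1 to 6 in ingSAT, from 0 to 3 in pgVAT, from 0 to 2 in iBAT at 10 °C, from 2 to 4 in iBAT at 34 °C and from 2 to 4 elsewhere, where 4 was reached without 22 °C library 2 or 34 °C library 1 of the ileum. Without the 2 cold pgVAT libraries high in epididymis genes 8 were called, and without the 2 iBAT libraries high in muscle genes 2. The count of depot differences with an adjusted p under 0.05 was 0, and 0 to 3 with 1 library left out.

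The direction was compared for the 10 genes in fat and, elsewhere, for those with an unadjusted p of at most 0.1. It changed for no called gene and for these others. With 1 library left out the log2FC in ingSAT ran from -0.39 to 0.22 for Aplnr. In pgVAT it ran from -0.031 to 0.97 for Aplnr, from -0.55 to 0.60 for Cdh5, from -0.50 to 0.44 for Flt1, from -0.12 to 0.83 for Kdr, from -0.26 to 0.88 for Pecam1 and from -0.35 to 0.68 for Tek, each lowest without 10 °C library 2. In iBAT at 10 °C it ran from -0.12 to 0.36 for Aplnr, from -0.053 to 0.27 for Cdh5, from -0.10 to 0.21 for Flt1 and from -0.0018 to 0.38 for Kdr, and in iBAT at 34 °C from -0.055 to 0.14 for Flt1 and from -0.0017 to 0.37 for Kdr. Kdr in brain at 10 °C was -0.56 with all labelled 22 °C libraries, Kdr in warm iBAT was -0.039 without the libraries high in muscle genes, and Vegfa in pgVAT was 0.26 without those high in epididymis genes. With library size only, Flt1 in pgVAT (-0.034) and Flt1 (-0.11) and Cdh5 (-0.046) in cold iBAT changed sign. That scaling moved the share of called genes that were higher from 62.9% to 88.3% in warm iBAT, from 45.3% to 24.6% in cold iBAT, from 56.2% to 40.9% in pgVAT and from 80.6% to 95.6% in cold quadriceps. The cause of these changes was not tested.

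The labels number the libraries but do not say that equal numbers are pairs. Deviations of same-numbered libraries correlated from -0.69 to 0.43, with 0.43 for iBAT number 1 and 0.42 for ileum numbers 1 and 3. Differently numbered libraries were not correlated as a reference, so this check cannot exclude pairing in a tissue. The numbers were not taken as pairs in the main fits. With the replicate number as a block the counts were 2 in ingSAT, 1 in pgVAT, 2 in iBAT at 10 °C, where Apln was added (log2FC 0.85), and 2 elsewhere, with 0 depot differences. Under the block Cdh5 (-0.20) and Flt1 (-0.13) in pgVAT changed sign. In iBAT Angpt2 rests on as few as 38 counts, which limits its precision.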
